A study of Mus musculus with 16 samples.

Results

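The genes described here carry a cell through mitosis: the mitotic cyclins and kinases, the chromosomal passenger complex, the spindle checkpoint, the kinetochore and centromere, spindle motors, cohesin, condensin, separase and securin, the anaphase-promoting complex and the proliferation marker Mki67. They were chosen by symbol from a list of 41 names together with every Anapc gene that carries a number and every Cenp gene that carries a single letter. Of the 41 names 40 were measured, Ccnb1 being the name without a row, and with the Anapc and Cenp genes 70 of 16475 genes were members. The rule itself used no measured value, but the members were chosen with earlier results of these data known.

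CD4+ T cells were sorted on GFP from lymph nodes and spleens of female C57BL/6 mice aged 6 to 12 weeks in which GFP is knocked into the Foxp3 locus, so that all groups carried the same reporter allele and were separated by its expression. The groups were activated Foxp3+ cells, activated Foxp3- cells, ex vivo Foxp3+ cells and ex vivo Foxp3- cells, each measured in polysome-associated RNA and in cytosolic RNA, which gave 8 groups of 2 arrays. Activated cells had been cultured for 36 h with CD3 and CD28 antibodies fixed to the plate (5 µg/ml) and with IL-2 at 100 U/ml, while ex vivo cells were taken directly after sorting. Cycloheximide (100 µg/ml), which keeps ribosomes on the mRNA, had been added to all buffers and media for ex vivo cells and was given to activated cells as their culture ended. The polysome-associated RNA is the part of the cytosolic RNA that sedimented with at least 3 ribosomes. Each ex vivo sample combined the RNA of 2 experiments. Arrays are numbered 1 to 16 after the sample titles, and the array names in the labels fall into 3 series: all ex vivo cells, activated Foxp3- cells and activated Foxp3+ cells. State and array series, and in activated cells also subset and array series, therefore cannot be told apart.

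Resting T cells sit outside the cell cycle, and stimulation through the T cell receptor and CD28 brings them through DNA replication and into division over the following days. Entry into mitosis is driven by Cdk1 bound to A- and B-type cyclins, the spindle checkpoint holds the cell until every kinetochore is attached to microtubules, and the anaphase-promoting complex then marks securin and the cyclins for destruction so that separase can cut cohesin. Regulatory T cells, which express the transcription factor Foxp3, divide in the living animal but are known to respond weakly to receptor stimulation in culture.

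Many genes of mitosis share promoter elements, the CCAAT box and the cell cycle genes homology region (CHR, TTTGAA or TTCGAA), through which they are repressed in resting cells and induced late in the cell cycle. RefSeq promoter windows of GRCm38.p6, from 250 bases before to 50 bases after a gene's start, were at hand for 60 of the 70 members. On either strand, TTTGAA or TTCGAA occurred in the windows of 26 of these 60 genes (43.3%) against 21.7% of all 27025 genes with a window, CCAAT in 37 of 60 (61.7%) against 41.1%, and both in 22 of 60 (36.7%) against 8.61%. By role the CHR letters were found for 4 of 5 cyclin and kinase genes, 3 of 3 motor and spindle assembly genes and 2 of 2 condensin and topoisomerase genes, but for 0 of 3 cohesin genes and 3 of 13 genes of the anaphase-promoting complex. The 150 bases before the start of 5 members follow, 4 with both motifs close to the start (Cdc20, Cdk1, Espl1 and Kif11, all of which were higher in activated Foxp3- cells) and Anapc2, which fell with activation and holds neither motif in its window. Capitals mark a CHR or CCAAT match in either orientation, read 5′ to 3′ on the gene's strand. Motif and direction did not always go together among the members. Bub3 holds both motifs and fell in polysome-associated RNA of both subsets. Cenpa holds both and fell in Foxp3+ cells, and Anapc7 and Anapc16 hold CHR letters and fell in both subsets. The matches are letters in a window, and binding was not measured.
Cdc20 (chr4:118437344-118437493, minus strand): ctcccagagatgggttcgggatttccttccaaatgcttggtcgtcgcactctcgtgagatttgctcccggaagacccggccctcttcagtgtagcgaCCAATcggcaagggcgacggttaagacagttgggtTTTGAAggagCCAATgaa
Cdk1 (chr10:69352913-69353062, minus strand): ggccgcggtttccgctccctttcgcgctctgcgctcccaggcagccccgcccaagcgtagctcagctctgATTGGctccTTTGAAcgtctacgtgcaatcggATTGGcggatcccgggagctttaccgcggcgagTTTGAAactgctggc
Espl1 (chr15:102296143-102296292, plus strand): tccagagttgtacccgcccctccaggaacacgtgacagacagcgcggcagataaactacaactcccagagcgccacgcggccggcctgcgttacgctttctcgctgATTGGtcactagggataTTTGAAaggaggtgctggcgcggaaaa
Kif11 (chr19:37376232-37376381, plus strand): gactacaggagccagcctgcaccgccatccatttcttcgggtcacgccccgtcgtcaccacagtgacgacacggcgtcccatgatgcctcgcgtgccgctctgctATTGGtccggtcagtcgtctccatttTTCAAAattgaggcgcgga
Anapc2 (chr2:25272316-25272465, plus strand): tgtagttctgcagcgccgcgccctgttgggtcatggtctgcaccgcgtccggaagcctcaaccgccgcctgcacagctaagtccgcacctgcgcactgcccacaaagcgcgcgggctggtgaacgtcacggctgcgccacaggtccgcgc

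All values are log2 array intensities as the authors deposited them, so a difference of 1 is a 2-fold difference, and each difference is given with its standard error (SE) from limma, a linear model fitted over all 16 arrays, with Benjamini-Hochberg adjusted p-values over the whole set of 16475 genes. Array medians lay between 4.84 and 5.06. No background signal was used, so the size of a difference that starts from a level below these medians is uncertain, and 28 to 38 of the 70 members had such a level in the ex vivo groups, against 6 to 17 in the activated groups. Replicate arrays correlated at 0.887 and 0.888 in activated Foxp3+ cells, at 0.941 and 0.945 in activated Foxp3- cells and at 0.98 to 0.992 in ex vivo cells, and the members of activated Foxp3+ cells lay further apart (median gaps of 0.831 and 0.938) than those of ex vivo cells (0.16 to 0.287). The fit over all arrays takes a shared spread per gene, so its SE can be too small for activated Foxp3+ cells and too large for ex vivo cells. The 6 measured T cell markers averaged 10.3 to 11.2 on every array. Lists of B cell, myeloid, CD8 and NK cell and stromal markers averaged 3.63 to 5.12, near or below the array medians, but single genes of these lists stood above them. Cd79b, a B cell receptor chain, had group means of 3.85 to 6.36 in activated and 8.05 to 8.99 in ex vivo cells. In cytosolic and polysome-associated RNA of activated Foxp3+ cells Pecam1 averaged 7.78 and 6.56, Cd68 6.85 and 6.45 and Lyz2 6.55 and 7.60, against at most 5.57, 4.40 and 5.67 in the other groups. Foxp3 itself averaged 10.1 in both fractions of activated Foxp3+ cells against 5.57 to 6.05 in activated Foxp3- cells, and 10.5 in both fractions of ex vivo Foxp3+ cells against 3.75 to 4.65 in ex vivo Foxp3- cells. The control probe sets for the 3′ and 5′ parts of actin differed by -0.588 to -0.202 in activated cells, by 4.16 to 4.64 in ex vivo Foxp3+ cells and by 0.82 to 1.38 in ex vivo Foxp3- cells. Those of Gapdh differed by 1.04 to 1.32, 3.51 to 4.12 and 2.26 to 3.37 in the same order, a smaller gap between the ex vivo subsets. These measures of RNA integrity and amplification moved with state and with ex vivo subset. Their part was not tested.

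More of the mitosis genes rose than fell with activation in each comparison, with more calls in Foxp3- cells. In activated Foxp3+ cells 26 members were higher and 6 lower in polysome-associated RNA, and 17 higher and 6 lower in cytosolic RNA, at an adjusted p under 0.05. Of all genes 14.7% were called higher and 14.6% lower (29.3% in either direction) in the polysome-associated comparison, and 16.9% higher and 14.4% lower (31.4%) in the cytosolic comparison, where the members' 32.9% called in either direction was close to that of all genes. In activated Foxp3- cells 47 members were higher and 6 lower in polysome-associated RNA (all genes: 14.1% and 16.4%, together 30.6%), and 36 higher and 4 lower in cytosolic RNA (all genes: 13.6% and 12.5%, together 26.1%). The median member differed by 0.82 and 0.70 in polysome-associated and cytosolic RNA of Foxp3+ cells and by 2.20 and 1.63 in those of Foxp3- cells, while the medians of all genes lay between 0.02 and 0.13. In the fit of the compared arrays alone 15 members were higher and 5 lower in polysome-associated RNA of Foxp3+ cells (all genes: 13.7% in either direction), and without array 6 that count of 32 calls became 20. Among markers of other cells in these 4 comparisons, 0 to 3 of 7 stromal genes rose and 0 to 1 fell, 0 of 6 B cell genes rose and 1 to 3 fell, and 0 to 1 of 4 CD8 and NK cell genes rose and 0 fell. Of 8 myeloid genes 1 rose and 1 fell in cytosolic and 2 rose and 3 fell in polysome-associated RNA of Foxp3+ cells, while 0 rose and 3 fell in each fraction of Foxp3- cells. The part of these markers in the results was not tested. In bulk RNA a smaller share of dividing cells and less of each mRNA per dividing cell cannot be told apart.

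**Figure D1:**
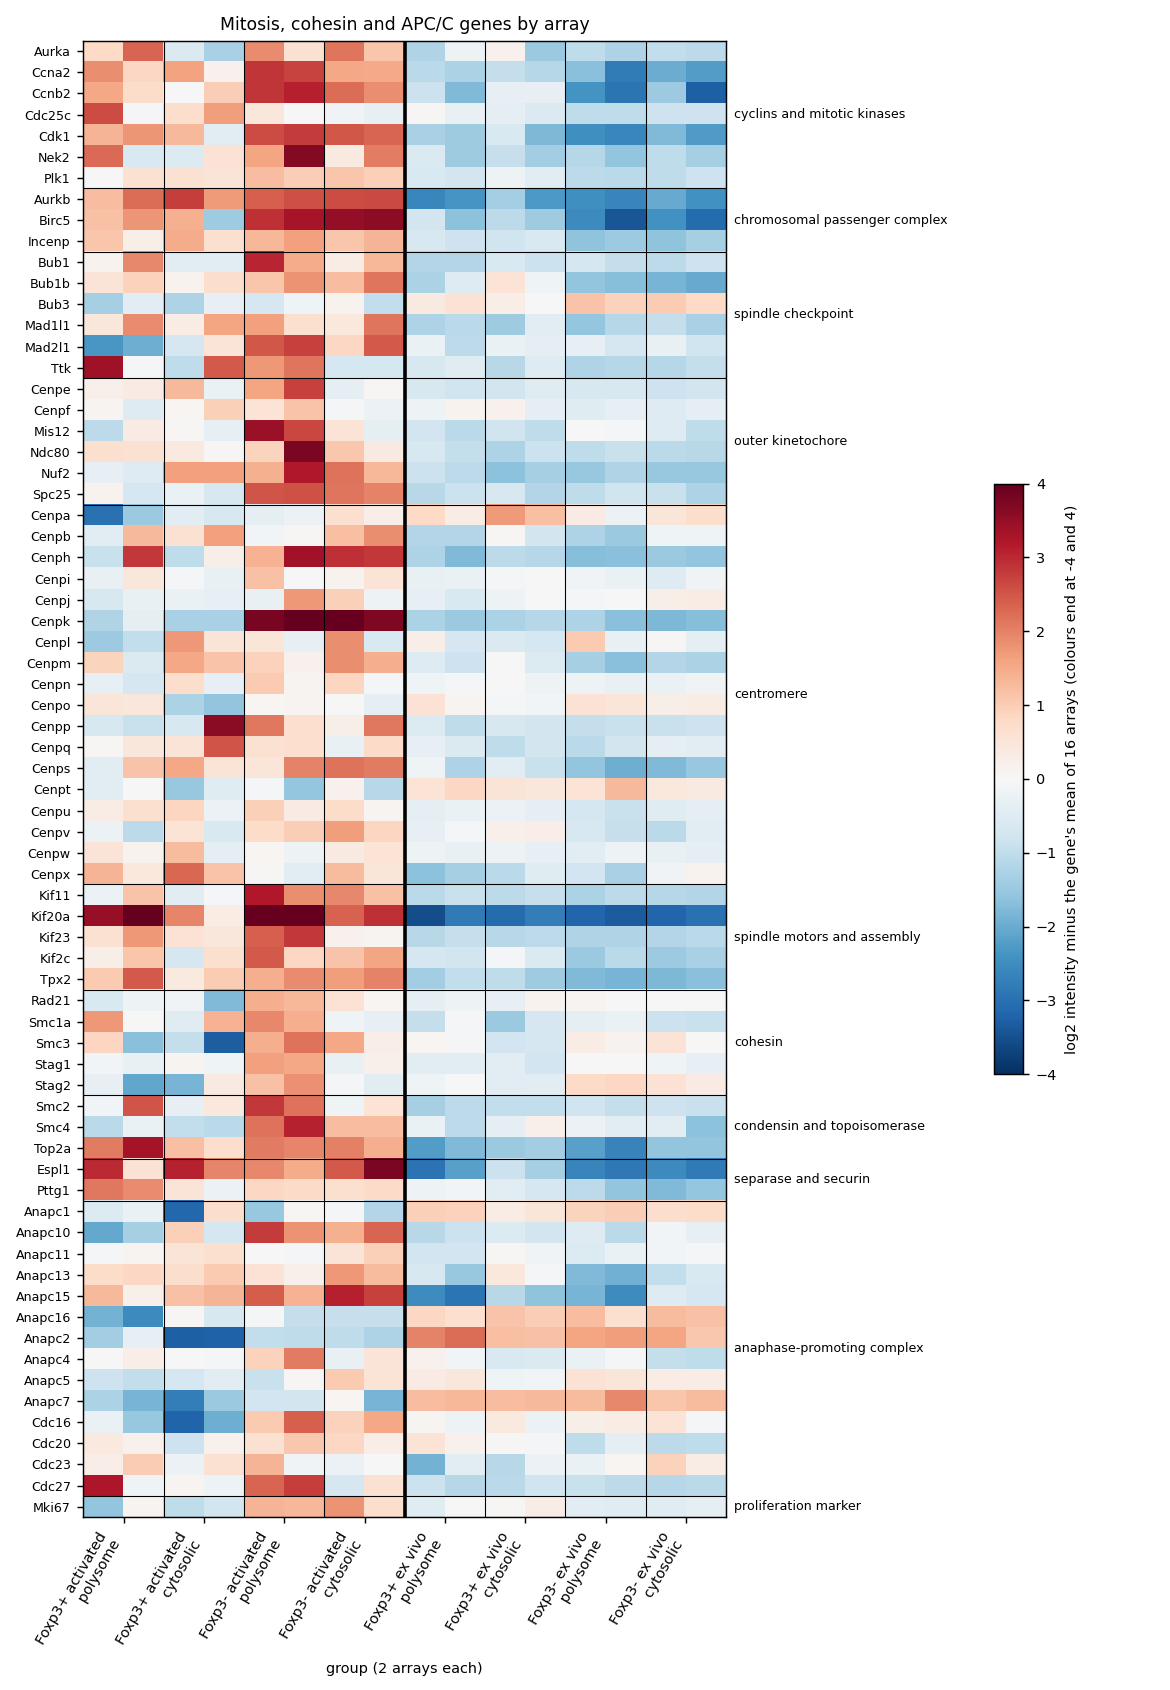
Each row is 1 of the 70 members and each column 1 array. Colour gives the log2 intensity minus the gene's mean over the 16 arrays, and a thick line divides activated from ex vivo cells. Most rows are red left of that line, whereas Anapc2, Anapc7 and Anapc16 are blue left of it. For Cenpk, Spc25 and Smc4 the red lies in activated Foxp3- cells, and the activated Foxp3+ arrays lie near or below the gene's mean.

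Of the members, 11 rose in both fractions of both subsets (Aurkb, Ccna2, Cdk1, Espl1, Incenp, Kif20a, Kif23, Plk1, Top2a, Tpx2 and Anapc15), 3 fell in all 4 comparisons (Anapc2, Anapc7 and Anapc16), and 0 members were called in opposite directions. A further 12 rose in both fractions of Foxp3- cells and passed the test in neither fraction of Foxp3+ cells, which does not by itself show a difference between the subsets. In none of the 4 comparisons were 10 members called: Anapc1, Cdc25c, Cenpi, Cenpj, Cenpl, Cenpn, Cenpp, Cenpw, Smc3 and Stag2. The share of all genes with each of these joint patterns was not counted, so the counts describe the members only.

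Among the cyclins and kinases, Cdk1, the kinase that drives entry into mitosis, had 8.38 and 8.76 in polysome-associated RNA of activated Foxp3+ cells (arrays 14 and 16) against 5.71 and 5.58 ex vivo (arrays 2 and 6), a difference of 2.93 ± 0.50 (SE, adjusted p = 0.0016). In polysome-associated RNA of Foxp3- cells it had 9.62 and 9.80 after activation (arrays 10 and 12) against 4.55 and 4.40 ex vivo (arrays 4 and 8), a difference of 5.24 ± 0.50 (adjusted p = 2.7e-05). The arrays of the states did not overlap in either subset. Ccnb2, a B-type cyclin, rose by 2.45 ± 0.56 in polysome-associated RNA of Foxp3+ cells and by 5.65 ± 0.56 in that of Foxp3- cells, and Ccna2, cyclin A, by 2.53 ± 0.48 and 5.00 ± 0.48 in the same comparisons. Plk1, a kinase of centrosome maturation and mitotic exit, changed less. It had 7.25 and 7.88 in polysome-associated RNA of activated Foxp3+ cells against 6.66 and 6.55 ex vivo (0.96 ± 0.23, adjusted p = 0.01), and 8.52 and 8.25 in that of activated Foxp3- cells against 6.21 and 6.21 ex vivo (2.17 ± 0.23, adjusted p = 5.2e-05). Aurka, the centrosomal Aurora kinase, rose by 2.26 ± 0.68 in polysome-associated RNA of Foxp3+ cells with replicates of 7.42 and 8.94. Nek2, a centrosome kinase, rose in polysome-associated RNA of Foxp3- cells only among the 4 comparisons (3.98 ± 0.92), and Cdc25c, the phosphatase that activates Cdk1, was not called.

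The 3 measured genes of the chromosomal passenger complex, which corrects faulty attachments and guides cytokinesis, all rose in both fractions of Foxp3- cells. Aurkb, its kinase, had 7.29 and 8.31 in polysome-associated RNA of activated Foxp3+ cells against 3.44 and 3.70 ex vivo, and 8.46 and 8.63 in that of activated Foxp3- cells against 3.62 and 3.41 ex vivo. These are differences of 4.23 ± 0.42 (adjusted p = 6.3e-05) and 5.03 ± 0.42 (adjusted p = 1.1e-05), and the arrays of activated and ex vivo cells were far apart in both subsets. Birc5 (survivin), which brings the complex to the centromere, had 8.14 and 8.75 in polysome-associated RNA of activated Foxp3+ cells against 6.24 and 5.33 ex vivo (2.66 ± 0.72, adjusted p = 0.018). In cytosolic RNA its replicates in activated Foxp3+ cells were 8.38 and 5.54, the lower of which was below both ex vivo arrays (5.91 and 5.55), and that comparison was not called. In activated Foxp3- cells it had 9.90 and 10.28 in polysome-associated RNA against 4.43 and 3.55 ex vivo, and 10.48 and 10.53 in cytosolic RNA against 4.55 and 3.90, the largest cytosolic rise of any member in Foxp3- cells (6.28 ± 0.72, adjusted p = 0.00014). Incenp, the scaffold of the complex, rose by 1.41 to 3.01 in the 4 comparisons.

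Of 6 spindle checkpoint genes, 3 rose and 1 fell in polysome-associated RNA of Foxp3+ cells, and 5 rose and 1 fell in that of Foxp3- cells. Bub1b (BubR1), an inhibitor of the anaphase-promoting complex, had 6.85 and 7.25 in polysome-associated RNA of activated Foxp3+ cells against 5.07 and 5.81 ex vivo (1.62 ± 0.40), and 7.45 and 8.14 in that of activated Foxp3- cells against 4.75 and 4.64 ex vivo (3.10 ± 0.40). Mad2l1 (Mad2), which captures the activator Cdc20 while kinetochores are unattached, had 3.86 and 4.23 in polysome-associated RNA of activated Foxp3+ cells against 5.91 and 5.14 ex vivo, which did not pass the test. In activated Foxp3- cells it had 8.66 and 8.93 against 5.87 and 5.53 ex vivo (3.10 ± 0.51, adjusted p = 0.00095). Bub3, the partner that carries Bub1 and Bub1b to kinetochores, was the exception in direction among the called genes of this group: it differed by -1.35 ± 0.42 in polysome-associated RNA of Foxp3+ cells and by -1.45 ± 0.42 in that of Foxp3- cells. Ttk (Mps1), the kinase that starts checkpoint signalling, had replicates of 7.94 and 4.48 in polysome-associated RNA of activated Foxp3+ cells and was called only in polysome-associated RNA of Foxp3- cells (3.12 ± 1.08).

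In the outer kinetochore, which binds microtubules, 0 of 6 genes passed the test in polysome-associated RNA of Foxp3+ cells in limma (1 at an unadjusted p under 0.05, 1 called in the fit of the compared arrays, 0 with array weights; median difference 0.65) and 6 of 6 rose in that of Foxp3- cells, while in cytosolic RNA 1 rose in Foxp3+ cells and 2 in Foxp3- cells. The group holds Ndc80, Nuf2 and Spc25 of the Ndc80 complex, Mis12 of the complex that anchors it, the motor Cenpe and Cenpf. Ndc80 in polysome-associated RNA of activated Foxp3- cells rested on unlike replicates (5.75 and 8.64, against 3.86 and 4.0 ex vivo). Cenpf rose by 1.25 ± 0.34 there, the smallest of the 6 differences. A group of 18 Cenp genes, Cenpj among them, was placed with the centromere by symbol and not by shown function. Of these 2 rose and 1 fell in polysome-associated RNA of Foxp3+ cells, and 7 rose and 1 fell in that of Foxp3- cells. Cenpa, the histone H3 variant that marks the centromere, fell in Foxp3+ cells: 5.21 and 6.71 in polysome-associated RNA after activation against 8.99 and 8.48 ex vivo (-2.78 ± 0.42, adjusted p = 0.00082), and 7.75 and 7.56 in cytosolic RNA against 9.89 and 9.40 (-1.99 ± 0.42). In Foxp3- cells Cenpa was called in neither fraction. Cenpx, a histone-fold protein of the centromere that also acts in DNA repair, rose in both fractions of Foxp3+ cells (2.37 ± 0.45 and 2.49 ± 0.45 in polysome-associated and cytosolic RNA) and was called in neither fraction of Foxp3- cells. Its partner Cenps rose by 3.01 ± 0.60 and 3.78 ± 0.60 in polysome-associated and cytosolic RNA of Foxp3- cells.

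Kif20a, a kinesin of the central spindle and cytokinesis, showed the largest difference of any member. It had 9.48 and 10.38 in polysome-associated RNA of activated Foxp3+ cells against 2.44 and 3.16 ex vivo (7.13 ± 0.51, adjusted p = 8.5e-06), and 10.36 and 11.09 in that of activated Foxp3- cells against 2.81 and 2.66 ex vivo (7.99 ± 0.51, adjusted p = 2.4e-06). The ex vivo levels lie far below the array medians. The 4 other motor and assembly genes rose in both fractions of Foxp3- cells: Kif11, the motor that separates the spindle poles, Kif23, which builds the central spindle with Racgap1, Kif2c, which depolymerises microtubules, and Tpx2, an activator of Aurka. Top2a, the topoisomerase that untangles replicated DNA, had 8.20 and 9.47 in polysome-associated RNA of activated Foxp3+ cells against 3.88 and 4.37 ex vivo (4.70 ± 0.39), and 8.21 and 8.08 in that of activated Foxp3- cells against 3.96 and 3.44 ex vivo (4.44 ± 0.39). Espl1 (separase), the protease that cuts cohesin, rose by 4.35 ± 0.70 and 4.45 ± 0.70 in polysome-associated RNA of Foxp3+ and Foxp3- cells. Pttg1 (securin), its inhibitor, rose by 2.15 ± 0.27 and 2.12 ± 0.27 in the same pair of comparisons.

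Cohesin, the ring that holds sister chromatids together and also shapes chromatin in cells that do not divide, had no called gene in 3 of the 4 comparisons. Of its 5 genes limma called 0 in either fraction of Foxp3+ cells and 0 in cytosolic RNA of Foxp3- cells, as did the fit of the compared arrays and array weights. At an unadjusted p under 0.05 stood 0 genes in polysome-associated and 2 in cytosolic RNA of Foxp3+ cells and 0 in cytosolic RNA of Foxp3- cells, with median differences of -0.10 and -0.32 in polysome-associated and cytosolic RNA of Foxp3+ cells and 0.32 in cytosolic RNA of Foxp3- cells. In polysome-associated RNA of Foxp3- cells 3 rose. Smc1a had 9.96 and 9.47 there after activation against 7.67 and 7.77 ex vivo (2.00 ± 0.64, adjusted p = 0.035), Rad21, the subunit that separase cuts, had 7.98 and 7.87 against 6.65 and 6.53 (1.33 ± 0.42, adjusted p = 0.034), and Stag1 had 6.41 and 6.33 against 4.77 and 4.76 (1.61 ± 0.22, adjusted p = 0.00029). Smc3, the partner of Smc1a, had 7.36 and 8.08 against 6.21 and 6.05, and Stag2 had 7.27 and 7.91 against 6.85 and 6.90; neither was called. In activated Foxp3+ cells the replicates of Smc3 (6.76 and 4.23 in polysome-associated RNA, 4.97 and 2.60 in cytosolic RNA) and Stag2 (5.78 and 4.03 in polysome-associated RNA, 4.22 and 6.44 in cytosolic RNA) lay further apart than most of these differences. For Rad21 the values in activated Foxp3+ cells were 5.92 and 6.33 in polysome-associated RNA and 6.39 and 4.76 in cytosolic RNA, and for Smc1a 9.77 and 8.04 in polysome-associated RNA and 7.54 and 9.43 in cytosolic RNA.

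**Figure D2:**
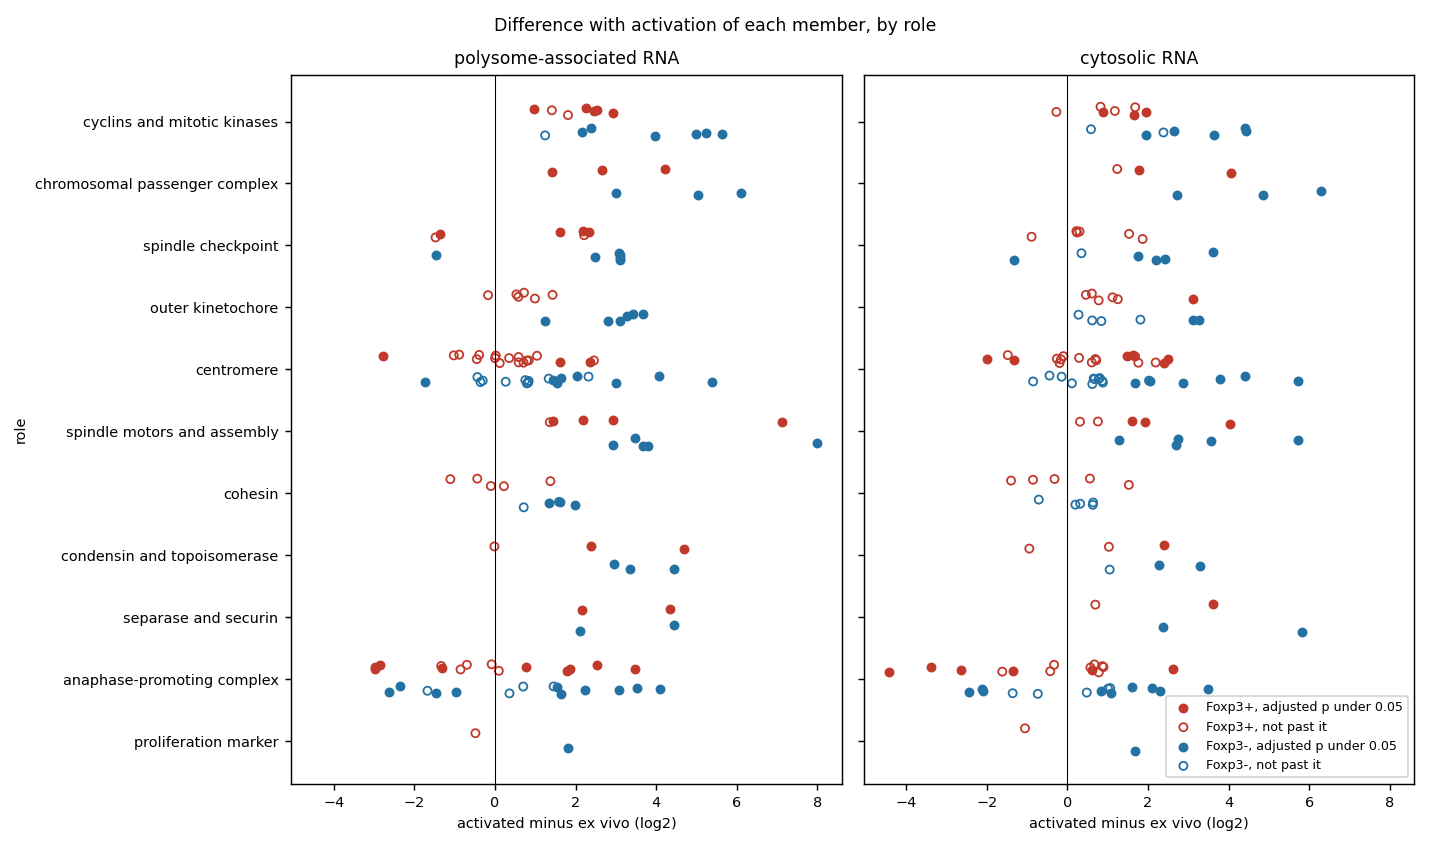
Each point is the log2 difference of 1 member between activated and ex vivo cells, by role, in polysome-associated RNA (left panel) and cytosolic RNA (right panel), with Foxp3+ cells in red above Foxp3- cells in blue. Filled points passed an adjusted p of 0.05 in limma. The 6 outer kinetochore genes are filled for Foxp3- and open for Foxp3+ in the left panel, and the anaphase-promoting complex has filled points on both sides of 0 in each subset.

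The anaphase-promoting complex did not move as a unit. Of its 14 measured genes, which include the activator Cdc20, 5 rose and 4 fell in polysome-associated RNA of Foxp3+ cells, 2 rose and 4 fell in cytosolic RNA of Foxp3+ cells, 6 rose and 4 fell in polysome-associated RNA of Foxp3- cells, and 6 rose and 3 fell in cytosolic RNA of Foxp3- cells. Anapc2, the cullin that forms the catalytic core, fell furthest. It had 7.23 and 8.28 in polysome-associated RNA of activated Foxp3+ cells against 10.61 and 10.85 ex vivo (-2.98 ± 0.31, adjusted p = 7.5e-05) and 5.34 and 5.38 in cytosolic RNA against 9.81 and 9.78 (-4.44 ± 0.31, adjusted p = 9.7e-06). In Foxp3- cells it had 7.62 and 7.61 against 10.18 and 10.29 in polysome-associated RNA (-2.62 ± 0.31) and 7.59 and 7.39 against 10.18 and 9.69 in cytosolic RNA (-2.44 ± 0.31). Anapc7, a subunit of the scaffold arm, differed by -2.84 ± 0.56 and -3.40 ± 0.56 in polysome-associated and cytosolic RNA of Foxp3+ cells and by -2.35 ± 0.56 and -2.09 ± 0.56 in those of Foxp3- cells. Anapc16, a small subunit, differed by -2.97 ± 0.35 in polysome-associated and -1.35 ± 0.35 in cytosolic RNA of Foxp3+ cells, and by -1.45 ± 0.35 and -2.13 ± 0.35 in those of Foxp3- cells.

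Other subunits rose. Anapc15, which helps to release the complex from the checkpoint, had 9.97 and 8.90 in polysome-associated RNA of activated Foxp3+ cells against 6.17 and 5.74 ex vivo (3.48 ± 0.42, adjusted p = 0.00022), and 11.12 and 10.07 in that of activated Foxp3- cells against 6.83 and 6.16 ex vivo (4.10 ± 0.42, adjusted p = 4.5e-05). Anapc11, the RING subunit that pairs with Anapc2 in the catalytic core, rose by 0.61 to 0.83 in 3 of the 4 comparisons. Anapc13, a small subunit that steadies the scaffold arm, rose by 1.86 ± 0.32 in polysome-associated RNA of Foxp3+ cells and by 2.23 ± 0.32 in that of Foxp3- cells. Anapc4, a platform subunit, had 7.03 and 7.28 in polysome-associated RNA of activated Foxp3+ cells against 7.20 and 6.91 ex vivo, which overlap, and 7.95 and 9.09 in that of activated Foxp3- cells against 6.76 and 6.99 ex vivo (1.64 ± 0.36, adjusted p = 0.005). Cdc27, which receives the activators, had replicates of 8.06 and 4.63 in polysome-associated RNA of activated Foxp3+ cells, while both Foxp3- arrays (7.14 and 7.59) lay above their ex vivo arrays (3.93 and 3.77). Cdc20 itself had 9.65 and 9.43 in polysome-associated RNA of activated Foxp3+ cells against 9.82 and 9.43 ex vivo, no difference beyond the spread, and 9.86 and 10.33 in that of activated Foxp3- cells against 8.24 and 8.90 ex vivo (1.53 ± 0.36, adjusted p = 0.0075).

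**Figure D3:**
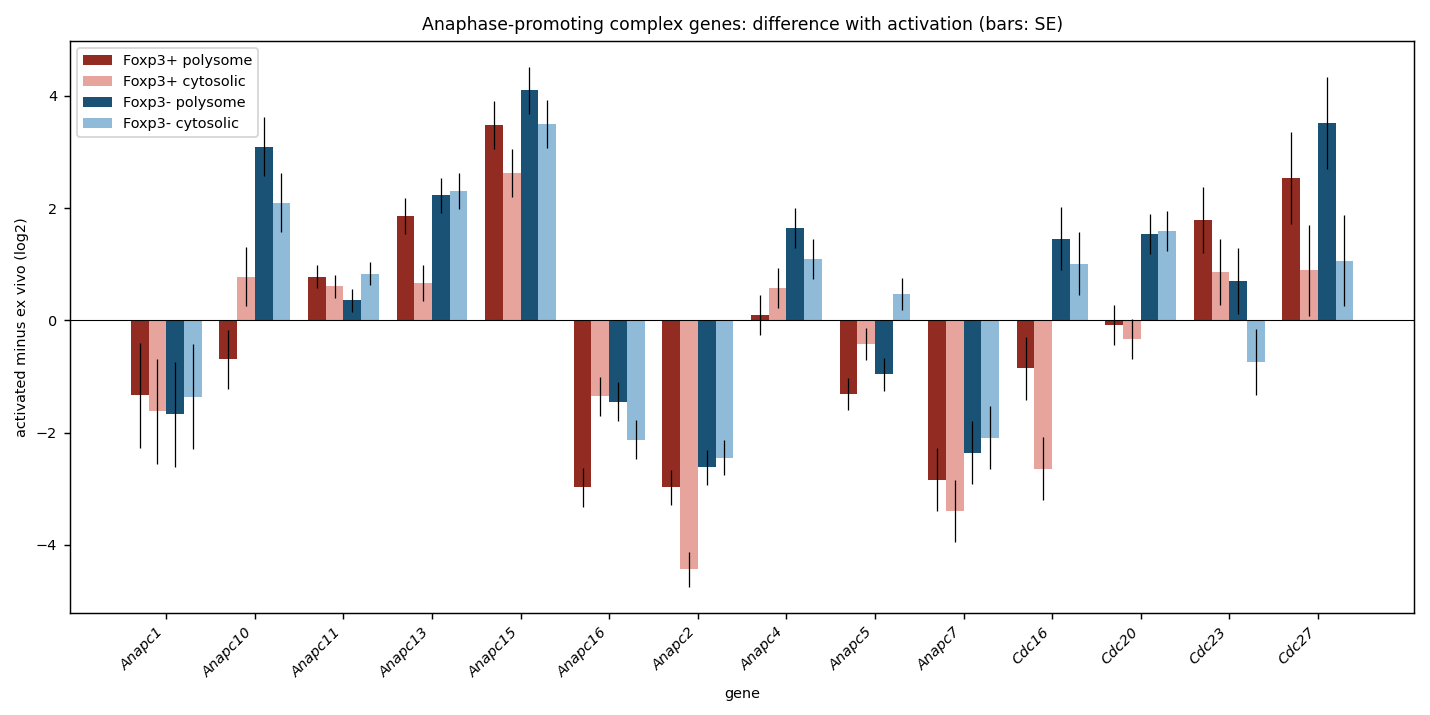
Bars give the log2 difference between activated and ex vivo cells for the 14 measured genes of the anaphase-promoting complex, with Foxp3+ cells in reds left of Foxp3- cells in blues and polysome-associated RNA in the darker shade, and error bars are SE from limma. Anapc2, Anapc7 and Anapc16 point down in all 4 bars and Anapc15 up in all 4, between 2.63 and 4.10.

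Mki67, which codes for the proliferation antigen Ki-67, had 5.58 and 7.25 in polysome-associated RNA of activated Foxp3+ cells against 6.66 and 7.14 ex vivo, and 6.13 and 6.41 in cytosolic RNA against 7.19 and 7.46. The differences of -0.48 ± 0.48 and -1.05 ± 0.48 did not pass the test. In activated Foxp3- cells it had 8.52 and 8.48 in polysome-associated RNA against 6.72 and 6.67 ex vivo (1.81 ± 0.48, adjusted p = 0.014), and 8.94 and 7.84 in cytosolic RNA against 6.66 and 6.79 (1.67 ± 0.48, adjusted p = 0.025).

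Between the activated subsets, the members that differed were nearly all lower in Foxp3+ cells. At the study's threshold for comparing activated subsets, an adjusted p of 0.15, 2 members were higher and 31 lower in polysome-associated RNA (all genes: 18.7% higher and 13.7% lower, together 32.4%) and 1 higher and 26 lower in cytosolic RNA (all genes: 13.8% and 12.2%). The median member differed by -1.03 and -0.60, against 0.20 and 0.13 for all genes. Lower in both fractions were 16 members: Anapc10, Anapc15, Birc5, Ccnb2, Cdc16, Cdk1, Cenpa, Cenpk, Cenpv, Kif11, Mad2l1, Mki67, Rad21, Smc3, Smc4 and Spc25. The share of all genes lower in both fractions was not counted. A fit of only the compared arrays, which takes the spread from fewer arrays, called 8 lower and 0 higher in polysome-associated RNA (all genes: 5.19% in either direction) and 6 lower and 0 higher in cytosolic RNA (all genes: 2.97%). In that fit Cenpk, Smc4 and Spc25 were lower in both fractions, and Anapc10, Mad2l1, Mis12, Rad21 and Stag1 in polysome-associated and Anapc2, Cdc16 and Cenph in cytosolic RNA. With array weights, which keep all 16 arrays, 18 members were lower and 1 higher in polysome-associated RNA, and 11 lower and 0 higher in cytosolic RNA. No share of all genes is given for that fit, so its counts describe the members only. Without array 9 the cytosolic count of 27 calls became 15.

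By role 6 of 6 outer kinetochore genes and 4 of 5 cohesin genes were lower in polysome-associated RNA of Foxp3+ cells in limma, with medians of -2.31 and -1.80. The fit of the compared arrays called only Mis12, Spc25, Rad21 and Stag1 among the genes of these roles. Array weights called Cenpe, Mis12, Nuf2, Spc25, Rad21, Stag1 and Stag2. Mis12 had 3.33 and 4.69 in polysome-associated RNA of activated Foxp3+ cells against 7.81 and 7.03 in that of activated Foxp3- cells (-3.41 ± 0.45, adjusted p = 0.0011). Mad2l1 had 3.86 and 4.23 against 8.66 and 8.93 (-4.75 ± 0.51, adjusted p = 0.0004), and Anapc10, the subunit that helps to bind substrates, 3.36 and 4.09 against 8.19 and 7.20 (-3.97 ± 0.52, adjusted p = 0.0011). In all 3 genes the arrays of the subsets were separated. In cytosolic RNA Cdc16, a scaffold subunit of the anaphase-promoting complex, had 3.92 and 5.19 in activated Foxp3+ cells against 8.05 and 8.68 in activated Foxp3- cells (-3.81 ± 0.56, adjusted p = 0.0026). Mki67 differed by -2.09 ± 0.48 and -2.12 ± 0.48 in polysome-associated and cytosolic RNA. The members higher in activated Foxp3+ cells were Pttg1 (10.52 and 10.31 against 9.25 and 9.20, a difference of 1.19 ± 0.27) and Cenpx (9.88 and 8.94 against 8.56 and 8.08, 1.09 ± 0.45) in polysome-associated RNA and Cenpq, another centromere protein, in cytosolic RNA, where its arrays overlapped. Of 7 stromal marker genes 3 were also higher in polysome-associated RNA of activated Foxp3+ cells, where the list averaged 4.35 and 4.80 against 3.77 and 3.93 in activated Foxp3- cells. Of 8 myeloid genes 2 were higher in the same comparison (list means of 4.73 and 4.78 against 3.83 and 4.18), and of 6 B cell genes 2 were higher in cytosolic RNA (4.38 and 4.75 against 4.08 and 4.25). In each other pairing of these lists and the CD8 and NK cell list with a fraction 1 gene was higher, and 0 genes of these lists were lower in either fraction. Their part in the results was not tested.

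Whether the change with activation itself differed between the subsets was tested as the difference of the 2 changes, at an adjusted p under 0.05. In cytosolic RNA 9 members changed less, or fell further, in Foxp3+ cells and 0 the other way (all genes: 1.21% and 0.856%, together 2.07%), and in polysome-associated RNA 7 and 0 (all genes: 1.43% and 1.15%, together 2.58%). Cenpk, Smc4 and Spc25 were called in both fractions. These comparisons share their arrays with the ones above. Cenpk, a protein of the inner kinetochore network, had 3.71 and 4.57 in polysome-associated RNA and 3.62 and 3.61 in cytosolic RNA of activated Foxp3+ cells, where the ex vivo arrays read 3.66 and 3.44, and 3.67 and 3.77. In activated Foxp3- cells it had 8.71 and 8.97, and 9.13 and 8.66, where the ex vivo arrays read 3.68 and 3.25, and 3.12 and 3.22. Only the activated Foxp3- arrays stood above the array medians. The changes differed by -4.79 ± 0.41 in polysome-associated RNA (adjusted p = 0.00071) and by -5.82 ± 0.41 in cytosolic RNA (adjusted p = 0.00023), and Cenpk was called under every alternative that tested it. The filter on mean level left it out.

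Spc25, a subunit of the Ndc80 complex, had the same pattern: 4.64 and 3.81 in polysome-associated RNA and 4.23 and 3.83 in cytosolic RNA of activated Foxp3+ cells, against 7.02 and 7.03, and 6.62 and 6.46, in activated Foxp3- cells, with ex vivo arrays between 3.25 and 3.84. Its changes differed by -2.71 ± 0.42 in polysome-associated RNA (adjusted p = 0.01) and by -2.66 ± 0.42 in cytosolic RNA (adjusted p = 0.013). In the fit of the compared arrays the call in polysome-associated RNA was lost. Smc4, a core subunit of condensin, had 6.01 and 6.83, and 6.10 and 6.02, in activated Foxp3+ cells, against 9.26 and 10.17, and 8.32 and 8.35, in activated Foxp3- cells, and the ex vivo arrays lay between 5.46 and 7.31, so that only the activated Foxp3- arrays stood outside them. Its calls were lost in the fit of the compared arrays (adjusted p = 0.084 in polysome-associated and 0.057 in cytosolic RNA). In polysome-associated RNA the changes of Mad2l1, Anapc10, Nuf2 and Stag1 also differed, by -4.57 ± 0.72, -3.79 ± 0.74, -3.14 ± 0.66 and -1.38 ± 0.31. In cytosolic RNA those of Birc5, Cdc16, Ccnb2, Bub1b, Anapc2 and Pttg1 differed, by -5.05 ± 1.02 for Birc5 down to -1.68 ± 0.38 for Pttg1. Without array 1 or array 7 the cytosolic count became 1, and without array 4 or array 8 the polysome-associated count became 2.

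**Figure D4:**
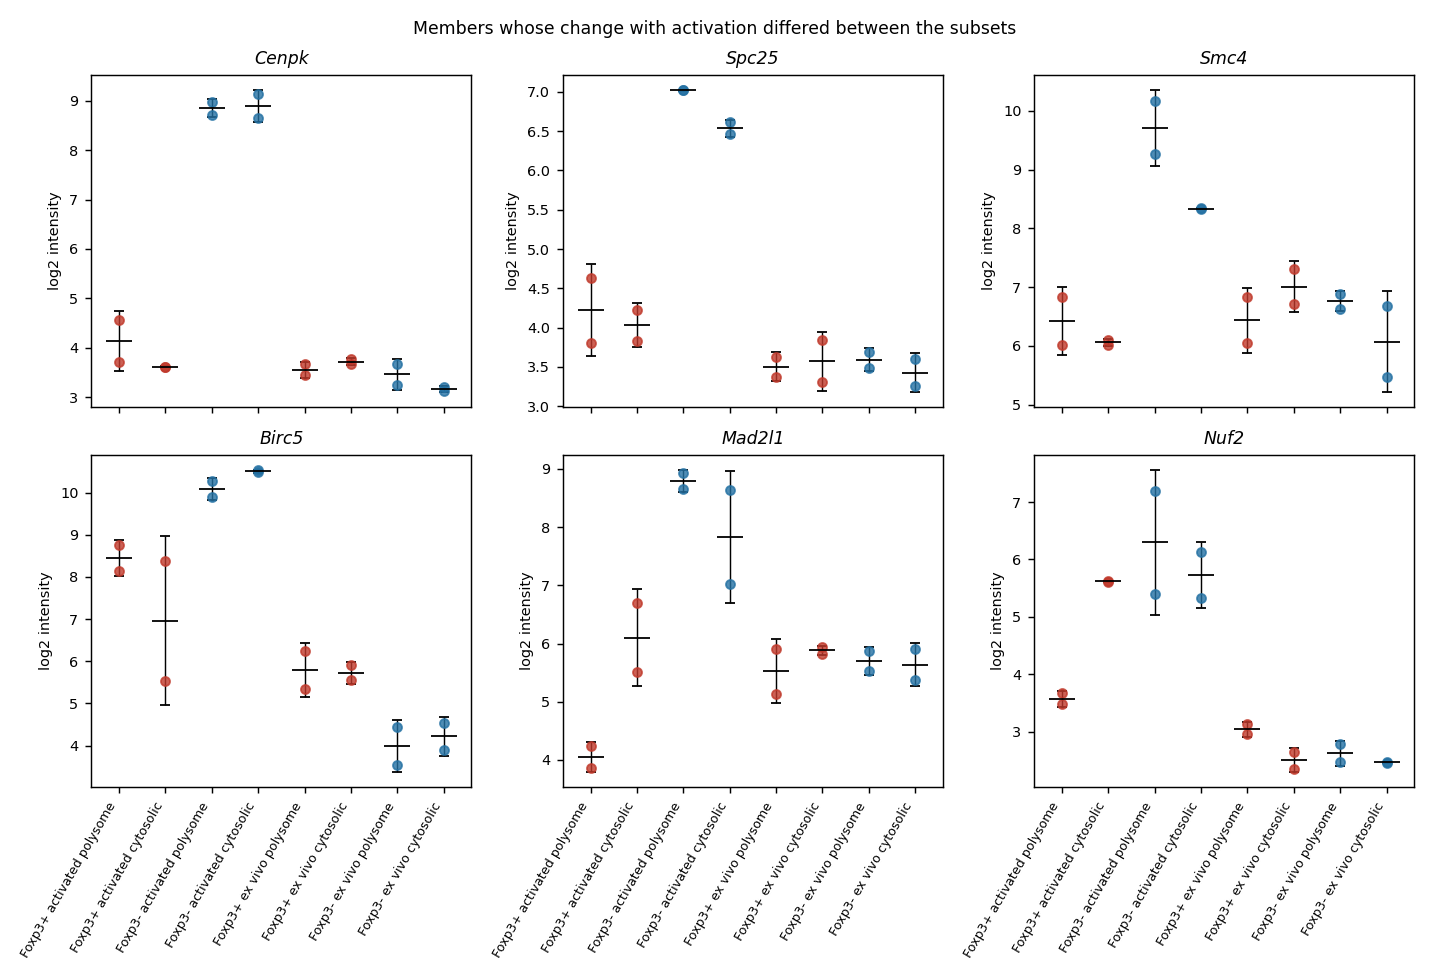
Points are the 2 arrays of each group, with Foxp3+ cells in red and Foxp3- cells in blue, and black marks give the mean and SD of log2 intensity. For Cenpk the activated Foxp3- arrays (8.66 to 9.13) stand far above the rest (at most 4.57), whereas Birc5 and Nuf2 stand above their ex vivo arrays also in 1 or both fractions of activated Foxp3+ cells.

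Before activation the fit over all 16 arrays called few members between the subsets, a share no larger than that of all genes, and those were higher in Foxp3+ cells. The fit of the compared arrays and array weights called more members, in both directions. At the same threshold of 0.15, which the study's methods give for activated cells only, 3 members were higher and 0 lower in cytosolic RNA of ex vivo Foxp3+ cells (all genes: 2.06% and 2.58%, together 4.64%), and in polysome-associated RNA 1 was higher and 0 lower (all genes: 1.62% and 2.25%, together 3.87%). Bub1b had 6.89 and 6.15 in cytosolic RNA of ex vivo Foxp3+ cells against 4.48 and 4.32 in that of ex vivo Foxp3- cells (2.12 ± 0.40, adjusted p = 0.026). Pttg1 had 7.99 and 7.76 against 6.64 and 6.86 (1.12 ± 0.27, adjusted p = 0.068), and in polysome-associated RNA 8.22 and 8.32 against 7.37 and 6.84 (1.16 ± 0.27, adjusted p = 0.065). Ccnb2 had 6.33 and 6.32 in cytosolic RNA against 5.20 and 3.40 (2.02 ± 0.56, adjusted p = 0.11). Cdc20 had 9.31 and 9.21 in cytosolic RNA of ex vivo Foxp3+ cells against 8.20 and 8.25, and 9.82 and 9.43 in polysome-associated RNA against 8.24 and 8.90; the differences of 1.03 ± 0.36 and 1.06 ± 0.36 missed the threshold (adjusted p = 0.22 for both), though the arrays did not overlap. A fit of the compared arrays alone called 20 members higher and 10 lower in cytosolic RNA (all genes: 15.2% and 16.3%) and 11 higher and 3 lower in polysome-associated RNA (all genes: 8.93% and 11.9%). Higher in both fractions of that fit were Birc5, Ccnb2, Cdc20, Cenpm, Cenpv, Incenp, Pttg1 and Tpx2, and lower in both were Bub3 and Stag2. With array weights 20 members were higher and 9 lower in cytosolic RNA, and 16 higher and 6 lower in polysome-associated RNA. The share of all genes under array weights is not given here, so these counts describe the members only. Without array 1 or array 7 the cytosolic count of 3 became 0. The 3′ to 5′ difference of actin was 4.16 to 4.64 in these Foxp3+ samples against 0.82 to 1.38 in the Foxp3- samples. That of Gapdh was 3.51 to 4.12 against 2.26 to 3.37. The part of these differences in the calls was not tested.

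Setting polysome-associated against cytosolic RNA asks which mRNAs lay more in the pool with at least 3 ribosomes than the average mRNA of those cells. The comparison is relative, since normalization puts the arrays on a common scale, and it does not count ribosomes per mRNA. In activated Foxp3+ cells 5 members were higher in polysome-associated RNA and 4 lower (all genes: 2.31% and 2.36%, together 4.66%), and in activated Foxp3- cells 5 were higher and 1 lower (all genes: 2.36% and 1.52%, together 3.88%), at an adjusted p under 0.05. Kif20a was higher in both subsets, with 9.48 and 10.38 in polysome-associated against 7.92 and 6.29 in cytosolic RNA of activated Foxp3+ cells (2.82 ± 0.51, adjusted p = 0.012) and 10.36 and 11.09 against 8.34 and 8.91 in activated Foxp3- cells (2.10 ± 0.51, adjusted p = 0.045). In activated Foxp3+ cells Anapc2, Cenpo, Pttg1 and Top2a were also higher and Anapc16, Cenpa, Mad2l1 and Nuf2 lower, and in activated Foxp3- cells Mis12, Kif23, Cenpe and Stag1 were higher and Anapc5, a platform subunit of the anaphase-promoting complex, lower. Ex vivo, limma called 0 members in either subset, with 5 of 70 at an unadjusted p under 0.05 in each (all genes: 0.0303% higher and 0.00607% lower in Foxp3+ cells, together 0.0364%, and 0.0303% in each direction in Foxp3- cells, together 0.0607%), and 2 and 6 in Foxp3- cells under the fit of the compared arrays and under array weights, against 0 and 0 in Foxp3+ cells. The calls in activated cells were not made in every fit. In the fit of the compared arrays alone 0 members passed in either subset. With array weights 0 passed in Foxp3+ cells and 4 in Foxp3- cells (Cenpe, Kif23, Mis12 and Stag1). Shares of all genes in these other fits are not given here.

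Differential translation, the subset difference of this polysome-to-cytosol difference, was called for 11 members in activated cells at the study's threshold of 0.15 (all genes: 3.83% higher and 3.65% lower in Foxp3+ cells, together 7.48%). Lower in Foxp3+ cells were 8: Mis12, Mad2l1, Nuf2, Cenpe, Anapc16, Stag1, Kif23 and Cenpf. Mis12 had 3.33 and 4.69 in polysome-associated against 4.42 and 4.04 in cytosolic RNA of activated Foxp3+ cells, and 7.81 and 7.03 against 4.90 and 4.0 in activated Foxp3- cells, and the subset difference was -3.18 ± 0.63 (adjusted p = 0.032). The fractions overlap in Foxp3+ cells and are separated in Foxp3- cells. Stag1, a cohesin subunit, had 4.68 and 4.48 against 4.89 and 4.61 in activated Foxp3+ cells, and 6.41 and 6.33 against 4.47 and 4.98 in activated Foxp3- cells (-1.81 ± 0.31, adjusted p = 0.019). Nuf2 had 3.67 and 3.47 against 5.63 and 5.62 in activated Foxp3+ cells, and 5.41 and 7.19 against 6.14 and 5.32 in activated Foxp3- cells (-2.62 ± 0.66, adjusted p = 0.067). Kif23 had 5.06 and 6.18 against 5.02 and 4.89, and 6.82 and 7.27 against 4.60 and 4.56 (-1.80 ± 0.43, adjusted p = 0.06).

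The other 3 members were higher in Foxp3+ cells by this measure. Anapc2 had 7.23 and 8.28 in polysome-associated against 5.34 and 5.38 in cytosolic RNA of activated Foxp3+ cells, and 7.62 and 7.61 against 7.59 and 7.39 in activated Foxp3- cells (2.27 ± 0.43, adjusted p = 0.027). Pttg1 had 10.52 and 10.31 against 8.94 and 8.20, and 9.25 and 9.20 against 9.06 and 9.18 (1.75 ± 0.38, adjusted p = 0.04). Cenpo had 7.04 and 7.03 against 5.30 and 4.99, and 6.64 and 6.68 against 6.55 and 6.20 (1.61 ± 0.31, adjusted p = 0.027). In all 3 genes the fractions of activated Foxp3+ cells did not overlap. The fit of the compared arrays and the fit with array weights each called 0 of the 11. An analysis of covariance like the study's, with pairs of arrays taken from consecutive numbers, called 2 members higher and 18 lower (all genes: 18.1% in either direction). It gave Kif23 the opposite sign. The study's filters on the slope of polysome-associated against cytosolic RNA were not applied, so this fit is not the study's own. Ex vivo 0 members were called at the threshold of 0.3 (all genes: 0% in each direction; 1 of 70 members at an unadjusted p under 0.05 in limma, 1 called by the analysis of covariance). The change of the polysome-to-cytosol difference with activation was called for 0 members in either subset in limma (all genes: 0.17% higher and 0.109% lower in Foxp3+ cells, 0.091% and 0.0668% in Foxp3- cells), with 15 of 70 in Foxp3+ cells and 7 of 70 in Foxp3- cells at an unadjusted p under 0.05. The analysis of covariance called 7 in Foxp3+ cells and 15 in Foxp3- cells. The share of all genes it called there is not given here, so these counts describe the members only. In limma Kif23 in Foxp3- cells came nearest (2.54 ± 0.43, adjusted p = 0.057).

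**Figure D5:**
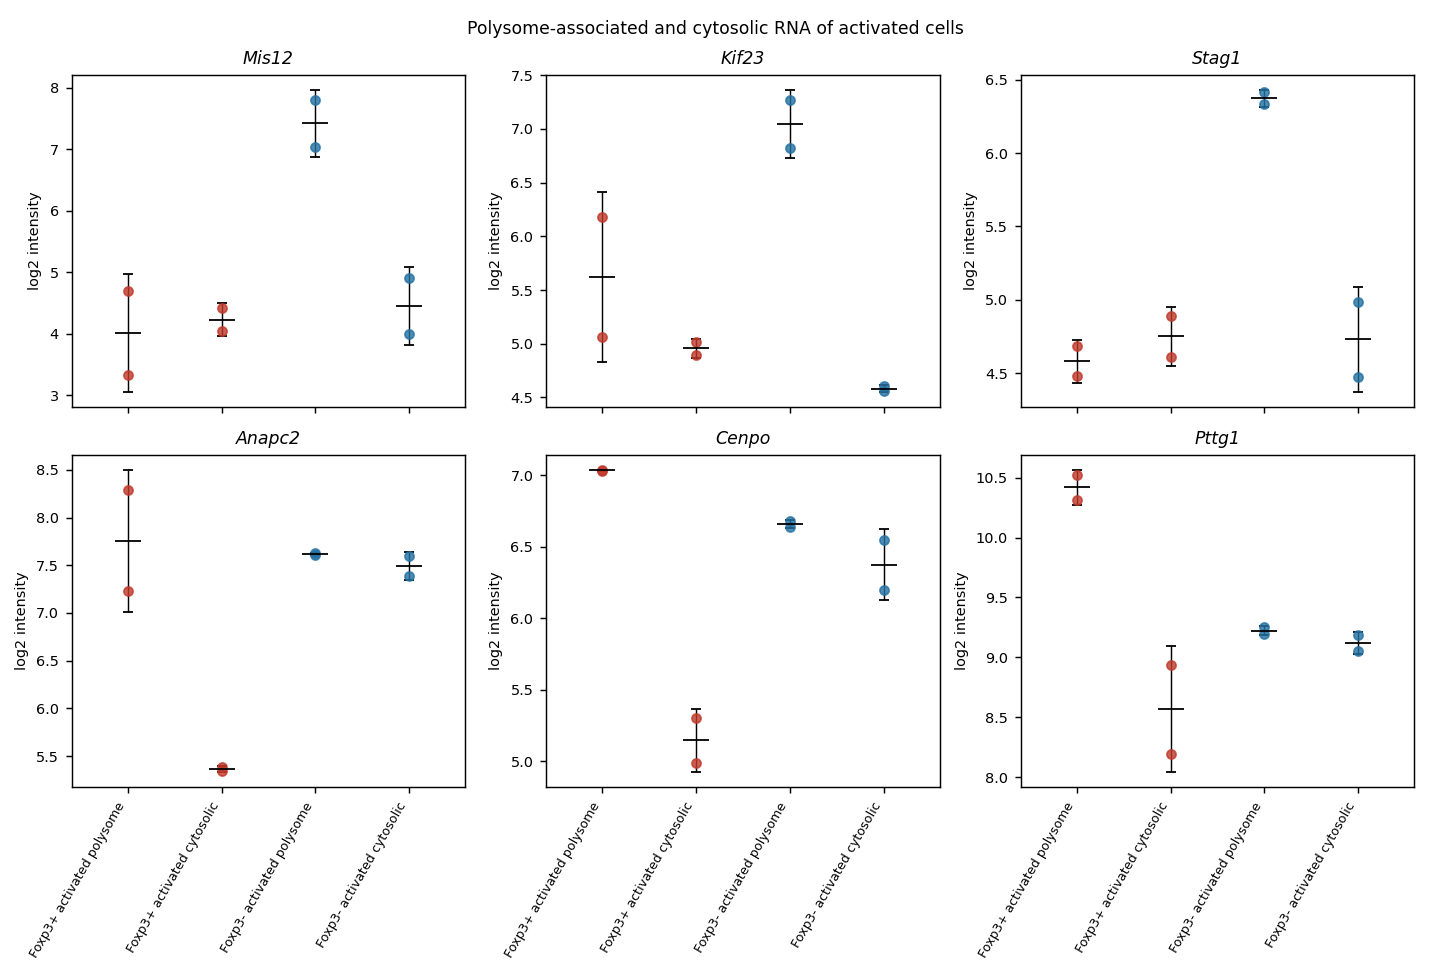
Points are the 2 arrays of each group of activated cells, Foxp3+ in red and Foxp3- in blue, with polysome-associated left of cytosolic RNA, and black marks give the mean and SD of log2 intensity. Mis12, Kif23 and Stag1 stand apart by fraction in Foxp3- cells, and Anapc2, Cenpo and Pttg1 by fraction in Foxp3+ cells.

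A further list of 72 measured genes of mitosis that are not members, written from general knowledge, gave counts of the same order. The shares of all genes called in the same comparisons are those printed above. With activation 25 were higher and 3 lower in polysome-associated RNA of Foxp3+ cells, 23 and 3 in cytosolic RNA of Foxp3+ cells, 45 and 3 in polysome-associated RNA of Foxp3- cells and 34 and 2 in cytosolic RNA of Foxp3- cells. In cytosolic RNA of Foxp3+ cells the share of the list called in either direction was only a little above that of all genes. Ube2c, the ubiquitin-conjugating enzyme of the anaphase-promoting complex, rose by 5.15 and 4.81 in polysome-associated and cytosolic RNA of Foxp3+ cells. In activated cells 5 of the 72 were higher and 30 lower in polysome-associated RNA of Foxp3+ cells than in that of Foxp3- cells, and 1 higher and 22 lower in cytosolic RNA. Sgo1 (shugoshin), which protects centromeric cohesin, differed by -4.70 in cytosolic RNA, and its change with activation differed by -5.21 between the subsets. A set of 6 members, Anapc1, Cdc25c, Cenpi, Cenpl, Cenpp and Cenpw, was called in none of the 18 comparisons. The share of all genes called in none was not counted. Cenpp had replicates of 2.96 and 7.20 in cytosolic RNA of activated Foxp3+ cells and Anapc1 of 5.12 and 8.94, so for these genes the spread between arrays of that group exceeds the differences between groups.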

How the data were processed

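Expression was measured with Affymetrix arrays on RNA amplified with the Ovation Pico WTA system, in 16 samples, 2 for each of 8 groups. The authors deposited log2 values computed by RMA (affy in R), with probes regrouped by Entrez gene. Whether the 16 arrays went through RMA jointly is not stated in what was read here. After removal of 64 control features from 16539, 16475 genes were tested. Symbols came from the platform annotation and covered 15780 of 16475 genes. The study's methods name biological duplicates but not whether these came from separate mice, so p-values measure the spread between these samples.

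limma 3.58.1 in R 4.3.3 was fitted to the 8 groups together, with Benjamini-Hochberg adjustment over 16475 genes and with thresholds of 0.15 for the subset comparison and differential translation in activated cells and 0.3 for differential translation ex vivo, as in the study's methods. Thresholds of 0.15 for the subset comparison ex vivo and of 0.05 for activation, fractions and the differences of changes were chosen here. The script was tested on simulated data. Alternatives were a fit of only the compared arrays, array weights, median centring, cyclic loess, a filter on mean level, an analysis of covariance and leaving out each array. The number of arrays limits the precision. Values per array and differences are given for members among the 6 largest called differences in a direction whose arrays do not overlap, and for 15 measured genes set by name; others that the text singles out were chosen after their values were seen. The members, lists and tests were chosen with earlier results of these data known. Promoters came from RefSeq (GRCm38.p6). No protein sequences were used here.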

Additional observations from a re-analysis of the deposited data

Results flagged for a closer look

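A direct test of the difference between the subsets passed the threshold for the following members, each given as Foxp3+ minus Foxp3- on the log2 scale. Differential translation in activated cells (polysome-associated minus cytosolic RNA) differed by -3.18 for Mis12, -3.02 for Mad2l1, -2.62 for Nuf2, -2.58 for Cenpe, -2.32 for Anapc16, -1.81 for Stag1, -1.80 for Kif23 and -1.73 for Cenpf, and by 2.27 for Anapc2, 1.75 for Pttg1 and 1.61 for Cenpo.

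The change with activation in cytosolic RNA differed by -5.82 for Cenpk, -5.05 for Birc5, -3.65 for Cdc16, -3.58 for Ccnb2, -3.38 for Bub1b, -3.21 for Smc4, -2.66 for Spc25, -1.99 for Anapc2 and -1.68 for Pttg1. In polysome-associated RNA it differed by -4.79 for Cenpk, -4.57 for Mad2l1, -3.79 for Anapc10, -3.14 for Nuf2, -2.97 for Smc4, -2.71 for Spc25 and -1.38 for Stag1. These differences and those in translation use the arrays of activated Foxp3+ cells, whose replicates lay furthest apart. The differences in the change with activation rest on the ex vivo arrays as well. Bub1b, Ccnb2 and Pttg1 were also called higher in cytosolic RNA of ex vivo Foxp3+ cells than in that of ex vivo Foxp3- cells.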

How the results depend on the processing

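Of 254 calls of members over 18 comparisons, 104 were made under every alternative that tested the member and 111 were lost without at least 1 array. The filter on mean level left out 22 of 70 members, so 26 of the 104 were not tested under it. Median centring moved no count of called members by over 1.5 times. The fit of only the compared arrays gave 20 instead of 32 calls for activation in polysome-associated RNA of Foxp3+ cells. For the activated subsets it gave 8 instead of 33 in polysome-associated and 6 instead of 27 in cytosolic RNA, and for the ex vivo subsets 14 instead of 1 and 30 instead of 3. It gave 0 instead of 9 and 0 instead of 6 for the fractions of activated Foxp3+ and Foxp3- cells, 2 instead of 0 for those of ex vivo Foxp3- cells and 0 instead of 11 for differential translation. For the subset difference of activation changes it gave 3 instead of 7 in polysome-associated and 5 instead of 9 in cytosolic RNA, and for the change of the fraction difference in Foxp3- cells 1 instead of 0. Array weights gave 19 and 11 for the activated subsets in polysome-associated and cytosolic RNA, 22 and 29 for the ex vivo subsets, 0 for the fractions of activated Foxp3+ cells, 6 for those of ex vivo Foxp3- cells, 0 for differential translation and 1 for the change in Foxp3- cells. Cyclic loess gave 2 and 6 for the ex vivo subsets, 5 for the cytosolic difference of changes and 1 for the change in Foxp3- cells. Genes with a mean above the median gave 21 for the activated subsets in polysome-associated RNA, 1 for the fractions of activated Foxp3- cells, 7 for differential translation and 4 for the polysome-associated difference of changes. The analysis of covariance gave 20 for differential translation in activated cells and 1 ex vivo, and 7 and 15 for the change of the fraction difference in Foxp3+ and Foxp3- cells. Where no share of all genes is printed for a fit, its counts describe the members only. The causes were not tested.

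Direction turned for Kif23 in differential translation under the analysis of covariance (0.313, adjusted p = 0.874) and for the uncalled activation difference of Mki67 in polysome-associated RNA of Foxp3+ cells without array 14 (0.35, adjusted p = 0.571), which ran from -1.32 to 0.35 when either array of that group was left out. Leaving out each array, activation was called for 20 to 37 members in polysome-associated and 16 to 29 in cytosolic RNA of Foxp3+ cells, and for 38 to 55 and 27 to 43 in those of Foxp3- cells. The activated subsets gave 25 to 34 in polysome-associated and 15 to 31 in cytosolic RNA, and the ex vivo subsets 0 to 4 and 0 to 5. The fractions gave 5 to 13 in activated Foxp3+ cells, 4 to 9 in activated Foxp3- cells and 0 to 0 in ex vivo cells of either subset. Differential translation gave 11 to 20 in activated cells, the higher counts without array 13 or 14, and 0 to 0 ex vivo. The difference of changes gave 2 to 13 in polysome-associated and 1 to 14 in cytosolic RNA, moved by over 1.5 times by 10 and 12 of the 16 arrays. The change of the fraction difference gave 0 to 5 in Foxp3+ and 0 to 2 in Foxp3- cells. Without array 1, 3, 5 or 7 the fractions of activated Foxp3+ cells gave 5 instead of 9.

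The labels give each array its own number, so no fit had the replicate number as a block. The analysis of covariance took consecutive numbers as pairs of cytosolic and polysome-associated RNA, an assumption that the labels do not settle. With 2 arrays a group, and many ex vivo levels near the array medians with no background value, small differences were not detectable here.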
